A study of Homo sapiens with 4 samples.

Results

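Edge peaks, the IGF2BP2 peaks that lay across the boundary of a coding exon and an intron, numbered 11124 of 145715 peaks in replicate 1 and 15751 of 137934 peaks in replicate 2, or 26875 of 283649 in all. A peak was taken as a member where the authors' annotation of its region named coding sequence (CDS) and intron and named no untranslated region. The peaks came from 2 libraries of RNA that an anti-IGF2BP2 antibody pulled down from Jurkat cells, a human T-cell acute lymphoblastic leukemia (T-ALL) line, by iRIP-seq, a crosslinking immunoprecipitation method followed by sequencing. The labels give both libraries 1 line, 1 antibody and no treatment or genetic change, and do not say whether the replicates came from separate cultures. The 2 input libraries were not analysed here, so every statement is about peaks the authors kept, not about enrichment over input. Among T-lineage markers, 9 of 10 had a peak on their own strand in at least 1 library, with 142 and 171 peaks in all, and LAT, whose identifier could not be matched to its symbol, had 12 and 10 peaks inside its RefSeq gene. The 6 markers of other blood cells had 0 and 2 peaks by matched identifier.

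IGF2BP2 is an RNA-binding protein of the insulin-like growth factor 2 mRNA-binding family and reads N6-methyladenosine (m6A), a methyl mark on messenger RNA. Coding exons are separated in the unspliced transcript by introns, which the spliceosome cuts out at the donor site, where an exon's 3′ end meets the next intron, and at the acceptor site, where an intron meets the next exon's 5′ end. Nearly all introns begin with GT and end with AG in the DNA. A bin placed across such a boundary on the genome can be filled by reads of spliced messenger RNA, which end at the exon's edge, or by reads of unspliced RNA, which run on into the intron. The lists give 1 height for the whole peak, so these cannot be told apart here.

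The positions of the edges could be read in letters for a few members, and these are shown because they let a reader see what an edge peak spans. Peaks were listed in bins of 50 nt, and the CDS share of a peak of 1 bin gave the number of its coding bases. Of 18951 distinct edge peaks of 1 bin that named only CDS and intron, 101 lay inside a RefSeq promoter window (GRCh38.p14, on either side of a gene's annotated start). All 101 (100%, 95% Wilson interval 96.3 to 100%) had GT just after the exon or AG just before it at the position that the CDS share gave. With the position moved by 1 base, 12 and 4 of the 101 did. GT stood at 4.62% and AG at 7.26% of all positions of the promoter windows. The sequences below, read 5′ to 3′ on the strand of the transcript, are those of the 101 that both libraries shared and whose side was read, at most 4 a strand with the highest lower height, and the capitals mark the exon and the lower case the intron.
CSNK2B: tctgccctggcctagGCTCTACGGTTTCAA
NFATC1: tctgttcccttccagCCCGACCCTGCCCGC
EHBP1L1: cctctttcttctcagTTGCCAGCCCTTCTA
DHPS: CAAGTCAATGCCATGgtgaggaccgggcgg
RBBP7: TGGCGAGTAAAGAGAgtaagaggccctgcg
SSBP2: CCAGGCCCGGGAGAAgtaagtgtctccgct
BCAT1: GTGGGGACTTTTAAGgtaagttgcttgcca

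On the plus strand, the 3 peaks that met this rule all held an acceptor. The CSNK2B edge, in the gene of the regulatory subunit of casein kinase 2, lay at chr6:31669821-31669850, and its peak had 17 tags in replicate 1 and 25 in replicate 2. The NFATC1 edge, in the gene of a calcium-regulated transcription factor of T cells, lay at chr18:79433564-79433593, under a peak of 5 and 6 tags. The EHBP1L1 edge lay at chr11:65581196-65581225, under a peak of 4 and 7 tags. On the minus strand, the 4 peaks with the most tags of 12 that met the rule all held a donor. The DHPS edge, in the gene of deoxyhypusine synthase as named by position, lay at chr19:12681545-12681574, under a peak of 10 tags in both libraries. The RBBP7 edge, in the gene of a histone-binding protein, lay at chrX:16870023-16870052, under a peak of 11 and 8 tags. The SSBP2 edge, in the gene of a single-stranded DNA-binding protein, lay at chr5:81750966-81750995, under a peak of 7 and 8 tags. The BCAT1 edge, in the gene of the cytosolic branched-chain aminotransferase, lay at chr12:24901799-24901828, under a peak of 6 and 17 tags. The motif GGAC, the core of the m6A consensus, stood on the strand of the transcript in 23 of the 101 edge peaks (22.8%) and in 17.1% of 210696 promoter bins of the same length. On either strand it stood in 40.6% of the edge peaks and 31.4% of the bins. The bins were cut from whole promoter windows while each edge peak is part coding exon, so the sequences are unlike, and the difference was not tested.

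Edge peaks made up 7.63% of the peaks of replicate 1 (95% Wilson interval 7.50 to 7.77%) and 11.4% of those of replicate 2 (11.3 to 11.6%), or 9.53% ± 2.68 (SD, n = 2). The shares of the libraries differed (two-sided Fisher's exact test over peaks, p = 4.61e-260), but the lists start at 4 tags in replicate 1 and 5 in replicate 2. With at least 5 tags the mean share was 15.4%, while replicate 2 stayed at 11.4%, so replicate 1 then had the larger share. Among peaks of at least 10 tags, edge peaks were 1119 of 2455 in replicate 1 and 3918 of 8239 in replicate 2. Edge peaks lay evenly on the strands, with 5568 plus and 5556 minus in replicate 1 and 7947 plus and 7804 minus in replicate 2. Few had a peak on the opposite strand of the same place, with 0.557% in replicate 1 and 0.375% in replicate 2. Adjoining bins were joined into a longer peak in 10.9% and 14.1% of the edge peaks. The intervals and the tests over peaks cover counting error only, since peaks of 1 gene are not independent and PCR copies of a molecule are counted again.

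Edge peaks were higher than peaks that lay wholly in CDS or wholly in introns. The height, in tags as the authors' caller gave it and not adjusted for depth, ran from 4 to 44 with a median of 5 in replicate 1 and from 5 to 66 with a median of 7 in replicate 2. Peaks wholly in CDS had medians of 4 and 6 tags and peaks wholly in introns of 4 and 5. At least 10 tags were reached by 10.1% of the edge peaks in replicate 1, against 1.68% of all its peaks, 3.20% of those wholly in CDS and 0.227% of those wholly in introns. In replicate 2 the share was 24.9%, against 5.97% of all its peaks, 9.20% of those wholly in CDS and 0.921% of those wholly in introns. The differences from peaks wholly in CDS passed two-sided Fisher's exact tests in replicate 1 (adjusted p = 7.84e-65) and in replicate 2 (adjusted p = 5.82e-183), and those from peaks wholly in introns gave p-values too small for the test to write. At the other end, 35.0% and 24.9% of the edge peaks stood at the lowest height of their list, where 50.9% and 42.7% of the peaks wholly in CDS and 79.6% and 71.5% of those wholly in introns stood.

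The median height did not change with how much of the edge peak was coding, while high peaks were more common in the more coding steps. The median was 5 tags in each of 5 equal steps of the CDS share (0 to 0.2 and so on) in replicate 1 and 7 tags in each in replicate 2. The mean ran from 5.85 tags in the lowest step to 6.40 in the highest in replicate 1, and from 7.96 to 8.65 in replicate 2. Spearman's rho of CDS share and height was 0.0742 over the 11124 peaks of replicate 1 and 0.0760 over the 15751 of replicate 2, given as a description of peaks that share a library. The means thus lay above those of peaks wholly in introns, at 4.29 and 5.46 tags, and of peaks wholly in CDS, at 5.13 and 6.63 tags, in every step. Edge peaks of 1 bin leaned towards the exon. Among those that named only CDS and intron, 5422 had over 25 coding bases and 4131 under 25 in replicate 1 (56.8%, two-sided exact binomial test against equal shares, p = 6.87e-40), and 7420 against 5662 in replicate 2 (56.7%, exact binomial p = 2.07e-53).

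Edge peaks recurred in the other replicate more often than either neighbouring class. In replicate 1, 53.1% of the edge peaks shared at least 1 bp and the strand with a peak of the other library, against 9.19% of all its peaks, 30.5% of those wholly in CDS and 2.91% of those wholly in introns. The share was 38.2% in replicate 2, against 9.62% of all its peaks, 22.0% of those wholly in CDS and 3.22% of those wholly in introns. The difference from peaks wholly in CDS was 22.6 percentage points in replicate 1 (two-sided Fisher's exact test, adjusted p = 6.31e-178) and 16.2 points in replicate 2 (adjusted p = 2.84e-132). The differences from peaks wholly in introns were 50.2 and 35.0 points, with p-values too small for the test to write.

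The classes differ in height, so the overlap was also set out by height. At 4 tags, the lowest height of replicate 1, 37.1% of the edge peaks were overlapped, against 20.9% of the peaks wholly in CDS and 1.77% of those wholly in introns. At 5 tags, the lowest of replicate 2, the shares were 19.1%, 11.8% and 1.64%. The overlap of edge peaks reached 76.6% at 10 to under 15 tags in replicate 1, and to 79.1% at 20 tags or more in replicate 2. Once a peak had 10 tags or more, edge peaks were overlapped in 76.0% of cases in replicate 1, against 64.4% of all such peaks, 67.9% wholly in CDS (adjusted p = 0.0227, Fisher's exact test) and 38.7% wholly in introns (adjusted p = 2.51e-14). In replicate 2 the share was 63.5%, against 54.0% of all such peaks, 58.5% wholly in CDS (adjusted p = 0.0211, Fisher's exact test) and 34.4% wholly in introns (adjusted p = 1.74e-27). The gap to peaks wholly in CDS was thus 8.05 and 4.99 points among these peaks, less than among all peaks. It was not there in every height class, since peaks wholly in CDS were overlapped in 72.7% against 69.5% of edge peaks at 20 tags or more in replicate 1, and in 73.1% against 69.0% at 15 to under 20 tags in replicate 2.

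The overlap was also larger where more of the edge peak was coding. It was 48.6% in the lowest step and 56.8% in the highest in replicate 1, and 31.3% and 42.8% in replicate 2. Edge peaks mainly in CDS were overlapped more often than those mainly in introns, by 55.7% against 49.3% in replicate 1 (two-sided Fisher's exact test, adjusted p = 9.55e-11) and by 41.8% against 32.4% in replicate 2 (adjusted p = 4.33e-31). With only the shortest peaks, of 1 bin, kept, the difference shrank from 6.38 to 3.51 points in replicate 1 (Fisher's exact p = 0.000578). In replicate 2 it shrank from 9.38 to 2.77 points (Fisher's exact p = 0.000669). Among edge peaks of at least 10 tags this difference held in replicate 2, at 66.6% against 57.1% (Fisher's exact test, adjusted p = 2.04e-08). In replicate 1 the values there ran the other way, at 75.0% mainly in CDS and 79.2% mainly in introns, and did not pass the test (adjusted p = 0.131, Fisher's exact test).

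Peaks of both libraries sit on the same grid of bins under 1 annotation, so a peak that shares the bin with the edge is an edge peak by construction. Of the overlapped edge peaks, 98.0% in replicate 1 and 95.9% in replicate 2 met an edge peak of the other library, which is given as a description. The interval was the same to the base for 4537 of them, 76.8% of the overlapped ones in replicate 1 and 75.4% in replicate 2. On these 4537 intervals the median height was 6 tags in replicate 1 and 8 in replicate 2, with replicate 2 the higher in 77.8%. The heights had a Spearman's rho of 0.397, and 477 of the intervals reached 10 tags in both libraries.

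The 8 highest edge peaks that both libraries shared, ranked by the lower of the 2 heights, lay in genes of several cellular functions. NACA, a subunit of the complex that meets nascent polypeptides at the ribosome, had 33 tags in replicate 1 and 53 in replicate 2 at chr12:56724451-56724500, a bin with 49 coding bases. HNRNPM, an RNA-binding protein that takes part in splicing, had 33 and 38 tags at chr19:8455401-8455450. TBCA, a cofactor of tubulin folding, had 33 and 36 tags at chr5:77776201-77776250. These 3 were high in both libraries and their bins were coding for at least 46 of 50 bases. RPS19, a protein of the small ribosomal subunit, had 31.5 and 38 tags at chr19:41861101-41861200, a peak of joined bins whose height is a mean. PFN1, the actin-binding profilin 1, had 31 and 43 tags at chr17:4948251-4948300, and RANBP1, a partner of the GTPase Ran, had 29 and 38 tags at chr22:20119001-20119050, both with 38 coding bases. GYPC, the membrane protein glycophorin C, had 28 and 41 tags at chr2:126690251-126690300. MAP4K4, a serine/threonine kinase, had 28 and 36 tags at chr2:101829501-101829550. Replicate 2 was the higher at all 8. NACA, TBCA, RPS19, PFN1 and RANBP1 have near-identical pseudogene copies, so their heights are uncertain where reads were shared.

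Whether the peak held the exon's 5′ or 3′ end differed between the strands. The side was read from a peak of the other library that abutted the edge peak and lay wholly in CDS or wholly in intron, which placed 226 of 11124 edge peaks in replicate 1 and 364 of 15751 in replicate 2. On the plus strand, 27 of the placed peaks held the donor side and 87 the acceptor side in replicate 1 (23.7% donor, 95% Wilson interval 16.8 to 32.3%, exact binomial test, adjusted p = 1.53e-08), and 34 against 149 in replicate 2 (18.6%, 13.6 to 24.8%, adjusted p = 4.53e-18). On the minus strand, 96 held the donor side and 16 the acceptor side in replicate 1 (85.7%, 78.0 to 91.0%, exact binomial test, adjusted p = 5.84e-15), and 153 against 28 in replicate 2 (84.5%, 78.6 to 89.1%, adjusted p = 1.89e-21). Over both strands the donor share was 54.4% (47.9 to 60.8%, exact binomial p = 0.206) and 51.4% (46.3 to 56.5%, p = 0.637). Put by genome coordinate, the exon lay at the higher coordinate of the peak in 183 of the 226 (81.0%) and in 302 of the 364 (83.0%). The split followed the genome coordinate rather than the direction of transcription, and whether it belongs to the transcripts or to how bins were placed and annotated was not tested.

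Other ways to place the side gave the same split by strand. Where a longer peak of the other library held the edge peak's bin, the donor side was held by 14 of 327 plus-strand peaks (4.28%) and 331 of 340 minus-strand peaks (97.4%) in replicate 1, and by 5 of 155 (3.23%) and 153 of 158 (96.8%) in replicate 2. Where a peak wholly in CDS lay 1 empty bin away in the same library, the donor share was 12.9% on the plus and 86.1% on the minus strand in replicate 1, and 11.8% and 87.8% in replicate 2. The splice site letters, an approach added after the data were seen, placed 90 of the 101 edges, since 11 matched on both sides. They gave 10 donor and 18 acceptor edges on the plus strand (35.7% donor, 20.7 to 54.2%, exact binomial p = 0.185) and 60 and 2 on the minus strand (96.8%, 89.0 to 99.1%, p = 8.47e-16). Over both strands the letters gave 70 donor edges of 90 (77.8%, 68.2 to 85.1%, exact binomial p = 1.14e-07), not near-equal shares. Of the 101 edges, 28 lay on the plus and 73 on the minus strand, and all came from promoter windows around gene starts. Each way placed only a small part of the edge peaks, and the sides of the rest were not read because no exon positions were used here.

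Edge peaks were spread over many genes, with 3711 gene identifiers in replicate 1, 4407 in replicate 2, 2835 in both and 5283 in either. A single edge peak was held by 45.7% of the identifiers in replicate 1 and 40.0% in replicate 2, while 153 identifiers had at least 10 and 33 at least 20 in each library. Among the protein-coding genes of RefSeq, 18.0% had an edge peak in replicate 1, 21.3% in replicate 2 and 13.8% in both. Among named genes with any peak on their own strand, 49.5% of 7275 and 57.5% of 7424 had one, with a median of 0 and 1 edge peaks a gene. The 15 genes with the most edge peaks held 5.12% and 3.99% of them. These counts are not adjusted for the number of exons or for how much RNA a gene makes. The 13.8% set beside the gene lists below is over all protein-coding genes, including those without any peak. The shares of 49.5% and 57.5% are over genes with a peak, each in 1 library.

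The leading genes encode very large proteins from many exons. UBR4, a giant ubiquitin ligase that recognises N-terminal degrons, had 68 edge peaks in replicate 1 and 84 in replicate 2, which were 64.8% and 77.1% of its peaks. MACF1, a spectraplakin that links actin to microtubules, had 49 and 62, and HUWE1, another giant ubiquitin ligase, 41 and 58. PIEZO1, a mechanically gated cation channel, had 47 and 39, beside 70 and 73 peaks wholly in its introns, the most such peaks among the 15 genes. INTS1, a subunit of the Integrator complex, had 39 and 40.

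A further 9 genes of the 15 had between 28 and 40 edge peaks a library. RNF213, a very large ubiquitin ligase, had 34 and 40, NUP210 of the nuclear pore 33 and 33, and DOCK2, an activator of Rac in lymphocytes, 32 and 39. Chromatin genes among them were the histone methyltransferase KMT2D with 31 and 38, the acetyltransferase scaffold TRRAP with 34 and 31 and the remodeller CHD3 with 29 and 32. The non-muscle myosin heavy chain MYH9 had 29 and 38 and the actin crosslinker filamin A, FLNA, 35 and 28. SBF1, a catalytically inactive member of the myotubularin phosphatases, had 28 and 30. Among the genes named here, median heights of the edge peaks ran from 5 tags in SBF1 to 10.5 in MYH9 in replicate 1, and from 7 tags in RNF213 and DOCK2 to 14.5 in PIEZO1 in replicate 2. Overlap with the other library ran from 47.1% in TRRAP to 89.7% in MYH9 in replicate 1, and from 31 of 62 peaks in MACF1 to 34 of 39 in PIEZO1 in replicate 2.

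NOTCH1, the receptor gene that is often mutated in T-ALL, had 21 edge peaks in replicate 1 and 23 in replicate 2, and 15 in each library were overlapped by the other. Their heights ran from 4 to 12 tags with a median of 6 in replicate 1, and from 5 to 17 with a median of 9 in replicate 2. The gene had 16 peaks wholly in CDS in each library, of which 7 and 6 were overlapped, and 7 and 13 wholly in introns, of which none was. On 11 intervals both libraries had the same edge peak to the base, and replicate 2 was the higher on all 11. The highest by the lower of the 2 heights, with 10 and 15 tags, lay at chr9:136501701-136501750, 44.3 kb from the gene's start, and held 3 coding bases. The next, with 9 and 16 tags, lay at chr9:136504651-136504700 and held 28 coding bases. The peak with the most tags of all, 17 in replicate 2 and 6 in replicate 1, lay at chr9:136519401-136519450, 26.6 kb from the start, and held 8 coding bases. Apart from 3, the edge peaks lay between 26.6 and 47.2 kb from the start. Those 3 lay nearer to it, at 0.323 kb in replicate 1 and at 2.02 and 22.3 kb in replicate 2, none of them overlapped.

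The T-ALL genes of the study, which it picked in part from these libraries, held edge peaks in 10 of 13 cases in both libraries, with a median of 3 and 4 a gene, against 13.8% of protein-coding genes. The count is therefore no independent evidence about these genes. By library it was 10 and 10 of the 13, against 49.5% and 57.5% of named genes with any peak on their own strand. MTOR, the kinase of the growth pathway, had 12 edge peaks in replicate 1 and 15 in replicate 2, of which 3 were overlapped in each. DNM2, the GTPase dynamin 2, had 9 and 12, of which 9 were overlapped in each library. DNMT3A, a DNA methyltransferase, had 5 and 12, of which 3 were overlapped in each. All 9 DNM2 peaks of replicate 1 thus had a partner, while most of the MTOR peaks had none. The edge peaks of DNM2 were also higher, with medians of 7 and 11.5 tags against 5 and 6 for MTOR. Overlap was larger for higher edge peaks in general, and a difference between these genes apart from height was not tested.

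The other members had 6 or fewer edge peaks a library. AKT1 and AKT2, kinases that act upstream of MTOR, had 4 and 6 and 2 and 6. The kinase gene ABL1 had 5 and 4 and the signal transducer STAT5B 3 and 3, and no edge peak of STAT5B was overlapped. RUNX1, a transcription factor of blood cells, had 3 and 4, beside 265 and 352 peaks wholly in its introns, and BCL11B, a transcription factor of T cells, had 3 and 1 beside 53 and 76. FBXW7, which marks the Notch1 protein for breakdown, had no edge peak and 7 and 6 peaks wholly in introns, and RPL11 had none of these kinds. NKX2-1 had no matched identifier, and no edge peak lay inside its RefSeq gene.

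In the Notch pathway list of 23 genes, 10 held an edge peak in both libraries by identifier, with a median of 0 and 1 a gene, against 13.8% of protein-coding genes. Replicate 1 had 10 of the 23 and replicate 2 had 12, against 49.5% and 57.5% of named genes with any peak on their own strand. No identifier was matched to 7 of the 23. A search inside their RefSeq genes found edge peaks in 1, the ubiquitin ligase gene ITCH, with 5 and 1, which brings the count in both libraries to 11. Among the receptors, NOTCH3 had 12 and 19 and NOTCH2 4 and 4. Of the proteases that cut the receptor, ADAM10 had 2 and 7 and ADAM17 1 and 1, and the gamma-secretase genes APH1A and PSENEN had none, while NCSTN had 0 and 2. PSEN2, another gene of that complex, had no matched identifier and no edge peak inside the gene. Of the nuclear partners, the corepressor SPEN had 6 and 9, the coactivator MAML1 1 and 2, and RBPJ, the DNA-binding partner, none. The target HES1 and the ligands DLL1 and JAG1, also unmatched, had none inside their genes.

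Of 16 core spliceosome genes, 15 held an edge peak in both libraries, with a median of 4 and 8, against 13.8% of protein-coding genes. By library it was 15 and 16, against 49.5% and 57.5% of named genes with any peak on their own strand. PRPF8, the protein at the heart of the spliceosome, had 25 and 29, and the helicase SNRNP200 26 and 24, while SF3B1, which helps to mark the branch point, had 2 and 2. Of 20 aminoacyl-tRNA synthetase genes, which charge tRNAs, 14 held an edge peak in both, against the same 13.8%, with a median of 3.5 and 5, led by AARS1 with 9 and 12. By library it was 15 and 18 of these 20 genes, against the same 49.5% and 57.5%. NARS1 had 6 in replicate 1 and 0 in replicate 2, and GARS1 0 and 7.

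Every one of the 12 giant cytoskeletal and motor genes held an edge peak in both libraries, with a median of 20.5 and 28.5 a gene, against 13.8% of protein-coding genes. Among named genes with any peak on their own strand, the shares by library were 49.5% and 57.5%. The spectrin SPTAN1 had 27 and 38 and the clathrin heavy chain gene CLTC only 1 and 1. Of 11 genes of giant ubiquitin ligases and PI3K-related kinases, 10 held one in both, against the same 13.8%, with a median of 12 and 16. By library it was 10 and 10 of these 11 genes, against the same 49.5% and 57.5%. ATR had no matched identifier, and no edge peak lay inside its RefSeq gene. PRKDC, the DNA-dependent protein kinase, had 19 and 35. Of 7 genes with a single exon or few exons, 1 held an edge peak in both libraries, against the same 13.8% of protein-coding genes. A gene without introns cannot hold an edge peak by the rule, so this count is no result about the single-exon genes. The gene with edge peaks was MYC, with 4 in replicate 1 and 3 in replicate 2. The others, JUN, IER2, SOX4, CEBPB, H1-2 and ACTB, had none, and ACTB has several coding exons.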

How the data were processed

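Peak lists of 2 IGF2BP2 iRIP libraries of Jurkat cells were analysed. According to the methods, the authors kept uniquely mapped reads of 150 bp read pairs, called peaks in each library on its own by the ABLIRC strategy and left out those overlapping an input peak. The submitters' processing notes name GRCh38, bcl2fastq and TopHat2. The deposited height is a signal in tags, not adjusted for depth, and the deposited p-value served as a filter in 1 alternative. Read numbers per library were not used here, so the depth behind a height is unknown. Positions were read as half-open intervals, and coordinates are given from 1. Region shares and gene identifiers are the authors' own. An identifier took the symbol of the protein-coding RefSeq gene that held at least 80% of its CDS or UTR peaks, within 1000 nt and on its strand where known. Where identifiers led to 1 symbol, that with at least 5 times the peaks of the next kept it. Of 8527 identifiers, 8128 (95.3%) were named, and list members with no matched identifier were searched by position inside their RefSeq gene.

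Classes were compared within a library by two-sided Fisher's exact tests and sides by exact binomial tests, with Benjamini-Hochberg adjustment over 4 tests a family (over 2 for edge peaks mainly in CDS against mainly in introns). The self-test on simulated peaks was passed. Named were the 15 genes with the most edge peaks, the 8 highest shared edge peaks, and the edge peaks of NOTCH1 and the study's T-ALL genes. Members of the gene lists were named as examples. A gene of the 15 and some list members are not reported here. The members, lists and tests were chosen with earlier results of these data known. Calculations used Python 3.11.15, pandas 2.3.3 and scipy 1.17.1.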

Additional observations from a re-analysis of the deposited data

How the results depend on the processing

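Edge peaks took a larger share of the peaks under stricter filters, at 46.6% with at least 10 tags, 15.4% with at least 5 tags and 32.9% with a p-value under 0.001, and 19.3% of sense peaks in CDS or intron, against 9.53% as the mean of both libraries (7.63 and 11.4% with 1 library left out). The filter of 5 tags changed replicate 1 only, since the list of replicate 2 starts at 5 tags. From the lowest to the highest step of the CDS share, the median height rose by 0.417 tags under the p-value filter and the mean by 0.622 tags, against 0 for the median. Against peaks wholly in CDS or introns, edge peaks stayed more often overlapped under all alternatives run. The difference between edge peaks mainly in CDS and mainly in introns fell in replicate 1 to 2.23 points with at least 10 tags in both lists (Fisher's exact p = 0.514) and turned to -4.20 points with that minimum in the list described only (p = 0.131), an alternative chosen after seeing the data. The donor share lost its call on the plus strand under a p-value under 0.001, at 21.4% in replicate 1 (exact p = 0.0574) and 26.3% in replicate 2 (exact p = 0.0636), and by splice site letters, also chosen after seeing the data, at 38.5% (exact p = 0.581) and 31.6% (exact p = 0.167). On the minus strand of replicate 1 it was 100% with at least 10 tags (exact p = 0.25), and the other strands and library could not be placed there. Fewer peaks were placed under each of these settings. With at least 10 tags, 9 of the 15 genes with the most edge peaks were still among the 15, and 498 identifiers held an edge peak in both libraries, against 2835. In the lists that minimum left 4 T-ALL genes, 2 Notch pathway genes, 7 aminoacyl-tRNA synthetase genes and 7 core spliceosome genes. It also left 3 genes of giant ubiquitin ligases and kinases, 4 DNA replication genes, 7 chromatin regulators and 0 contrast genes. Of the 12 giant cytoskeletal and motor genes, 10 stayed. The share over all protein-coding genes was not counted at that minimum, so these counts have no background beside them. No paired analysis was possible because the input libraries that share replicate numbers with the iRIP libraries were not analysed here. The unknown depth limits every comparison of heights between the libraries.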

Other observations

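DNA replication genes held an edge peak in both libraries in 10 of 12 cases, with a median of 3.5 a gene in replicate 1 and 9 in replicate 2, against 13.8% of protein-coding genes. By library it was 10 and 12, against 49.5% and 57.5% of named genes with any peak on their own strand. POLE, the catalytic subunit of a leading-strand DNA polymerase, had 22 and 26. Among the subunits of the replicative helicase, MCM7 had 7 and 9 and MCM6 1 and 3. MCM5 had 1 and 10. PCNA, the sliding clamp, had 0 and 1. Of 12 chromatin regulators, 11 held one in both libraries by identifier, against the same 13.8% of protein-coding genes, and 49.5% and 57.5% by library. With KMT2A by position all 12 did, with a median then of 10.5 and 18. NCOR1, a corepressor, had 22 and 26, CHD4 and SMARCA4, remodelling ATPases, had 20 and 25 and 19 and 22, and KMT2A, a histone methyltransferase whose identifier could not be matched to 1 symbol, had 7 and 16 edge peaks inside its RefSeq gene.

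Edge peaks placed with the exon at the higher coordinate had a median of 5 tags in replicate 1 (n = 183 peaks) and 7 in replicate 2 (n = 302 peaks), and those with the exon at the lower coordinate had medians of 4 (n = 43 peaks) and 6 (n = 62 peaks). The edge peaks that could not be placed had medians of 5 and 7 tags. These differences were not tested.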
